A study of Mus musculus with 16 samples.

Results

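The leptin signalling genes Lep, Lepr, Jak2, Stat3, Socs3 and Ptpn1 were followed in the inguinal white adipose tissue (iWAT), the main subcutaneous fat pad of the mouse. These 6 members were chosen by name from the 54752 gene IDs of the count table, and each symbol matched 1 ID. All 6 passed the filter on low counts, which kept 19736 genes. Bulk RNA was sequenced from 16 libraries of 4 genotypes, WT, SOD1G93A, Lepob/+ and SOD1G93A-Lepob/+, with 4 mice each, all labelled as C57BL/6 females aged 90 days. Lepob/+ mice carry 1 ob allele of Lep and 1 normal allele in every cell, so the fat is not the only tissue in which the allele could act. SOD1G93A mice carry many copies of a mutant human SOD1 transgene, driven in all tissues by the human SOD1 promoter, as a model of amyotrophic lateral sclerosis, and SOD1G93A-Lepob/+ mice carry the transgene and 1 ob allele. The design asks what the ob allele does to the fat of mice with and without the transgene.

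Leptin is a hormone that mature adipocytes secrete in proportion to their fat stores, and it acts on the brain to restrain feeding. Its receptor, encoded by Lepr, holds the kinase JAK2, which phosphorylates the receptor and the transcription factor STAT3. STAT3 induces Socs3, whose product blocks the receptor and JAK2, and the phosphatase PTP1B, the product of Ptpn1, removes phosphate from JAK2. Phosphorylation is not seen in RNA counts, so only the supply of each transcript was measured here.

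The ob allele is a nonsense change of an arginine codon in the coding part of Lep. That codon is shown because it marks what the carriers' RNA count cannot separate. On chromosome 6 of GRCm38 the gene spans chr6:29060220-29073877 on the plus strand, and the codon lies at chr6:29070991-29070993 in exon 3 of 3. It follows 104 residues of a precursor of 167 residues. The reference bases of chr6:29070967-29071017 are given 5′ to 3′ with the codon in capitals.
Lep codon: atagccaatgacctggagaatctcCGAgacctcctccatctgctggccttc
The count table sums reads of both alleles. The Lep level below is therefore the total of normal and ob transcripts, it says nothing of the amount of leptin protein, and it does not check the genotype labels.

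The starts of Lep and Socs3 are shown because they hold the binding sequence of a factor named in the pathway, on either strand and within 250 bases before to 50 bases after a RefSeq start (GRCm38.p6). Promoters of all 6 members were matched and searched for the STAT sequence TTCNNNGAA and the C/EBP sequence TTGCGCAA. Lep held the C/EBP sequence 55 bases before its start, as 60 of 32851 promoters did (0.183%), and Socs3 held the STAT sequence 154 bases before its start, as 8.3% did. The other members had neither sequence in this window. The capitals mark the match, in chr6:29060136-29060203 on the plus strand and chr11:117969482-117969550 on the minus strand. The RefSeq start used for Socs3 lies inside the span that GENCODE M21 gives the gene, which also holds a longer transcript with a start further upstream.
Lep promoter: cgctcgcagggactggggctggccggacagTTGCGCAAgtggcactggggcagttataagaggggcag
Socs3 promoter: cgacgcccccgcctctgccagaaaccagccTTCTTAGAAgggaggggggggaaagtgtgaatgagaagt
These matches are letters in a window and no binding was measured.

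The libraries held 36795376 to 61886313 counts each, and levels are given in CPM, counts scaled to a common library size with TMM factors, the trimmed-mean scaling of edgeR. Adipoq and Plin1, which define mature adipocytes, were at least at 1209 and 806 CPM in all 16, so the defining markers of the labelled tissue were present throughout. A score of 7 lymph node markers (the mean log2 CPM of Ccl21a, Ccl19, Cxcl13, Glycam1, Madcam1, Chst4 and Tnfsf11) fell into separate clusters. It lay between 4.26 and 5.05 in 6 libraries and between -2.93 and -1.26 in the other 10, which are called lymph node high and low below. The high libraries were WT replicates 1 and 2, Lepob/+ replicate 3 and SOD1G93A replicates 1, 2 and 4, and SOD1G93A-Lepob/+ had none. These classes come from the data and not from the study's groups, and differences between them are given as values with no test. In Lepob/+ replicate 4 the 12 skeletal muscle markers averaged 16000 CPM. They averaged 408 CPM in WT replicate 3 and 4.38 to 29.7 CPM in the other 14 libraries. The library labelled SOD1G93A-Lepob/+ replicate 3 had 1756 counts over the Y-linked genes Ddx3y, Uty, Kdm5d and Eif2s3y and 0 of Xist, which goes against its label as female, while the other 15 had 0 Y-linked counts.

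Lep was the most abundant member and the most variable. Per kilobase of exon its mean level was 171 ± 122 CPM (SD, n = 16). Ptpn1 followed at 18.9 ± 4.03, Stat3 at 18.8 ± 2.45, Jak2 at 12.5 ± 2.51, Socs3 at 10.4 ± 2.17 and Lepr at 0.987 ± 0.568, all in CPM per kilobase. Among Ptpn1, Stat3, Jak2 and Socs3 every pair of ranges overlapped except that of Stat3 and Socs3. By contrast, every library had Lep above and Lepr below all other members. Between the lowest and the highest library Lep varied from 181 to 1843 CPM and Lepr from 2.66 to 19.9 CPM, while Stat3 varied only from 154 to 238 CPM.

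No member passed the threshold between genotypes in the edgeR quasi-likelihood test. Of the 19736 genes tested, 0% passed a Benjamini-Hochberg adjusted p of 0.05 in each of the 7 comparisons, so the absence of members among the calls is also the background. At an unadjusted p under 0.05 in this edgeR fit, 0 of the 6 members stood out in any comparison. Of all genes, 862 (4.37%) did in Lepob/+ against WT and 505 (2.56%) in SOD1G93A against WT. In SOD1G93A-Lepob/+ 3261 (16.5%) did against SOD1G93A and 1626 (8.24%) against Lepob/+. For the averages over the other mutation these counts were 1902 genes (9.64%) for the ob allele and 632 (3.2%) for the transgene. They were 1574 (7.98%) for the interaction of both mutations. At such shares, 0 of 6 members does not set the members apart from other genes. DESeq2, run on the compared genotypes only, called 0.0174% of genes in Lepob/+ against WT, 0.0474% in SOD1G93A against WT, 6.03% in SOD1G93A-Lepob/+ against SOD1G93A and 0.111% in SOD1G93A-Lepob/+ against Lepob/+, and no member in any of them. The 4 libraries of a genotype are separate mice by the study's methods, and the comparisons share groups, so their values are not independent of each other.

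**Figure D1:**
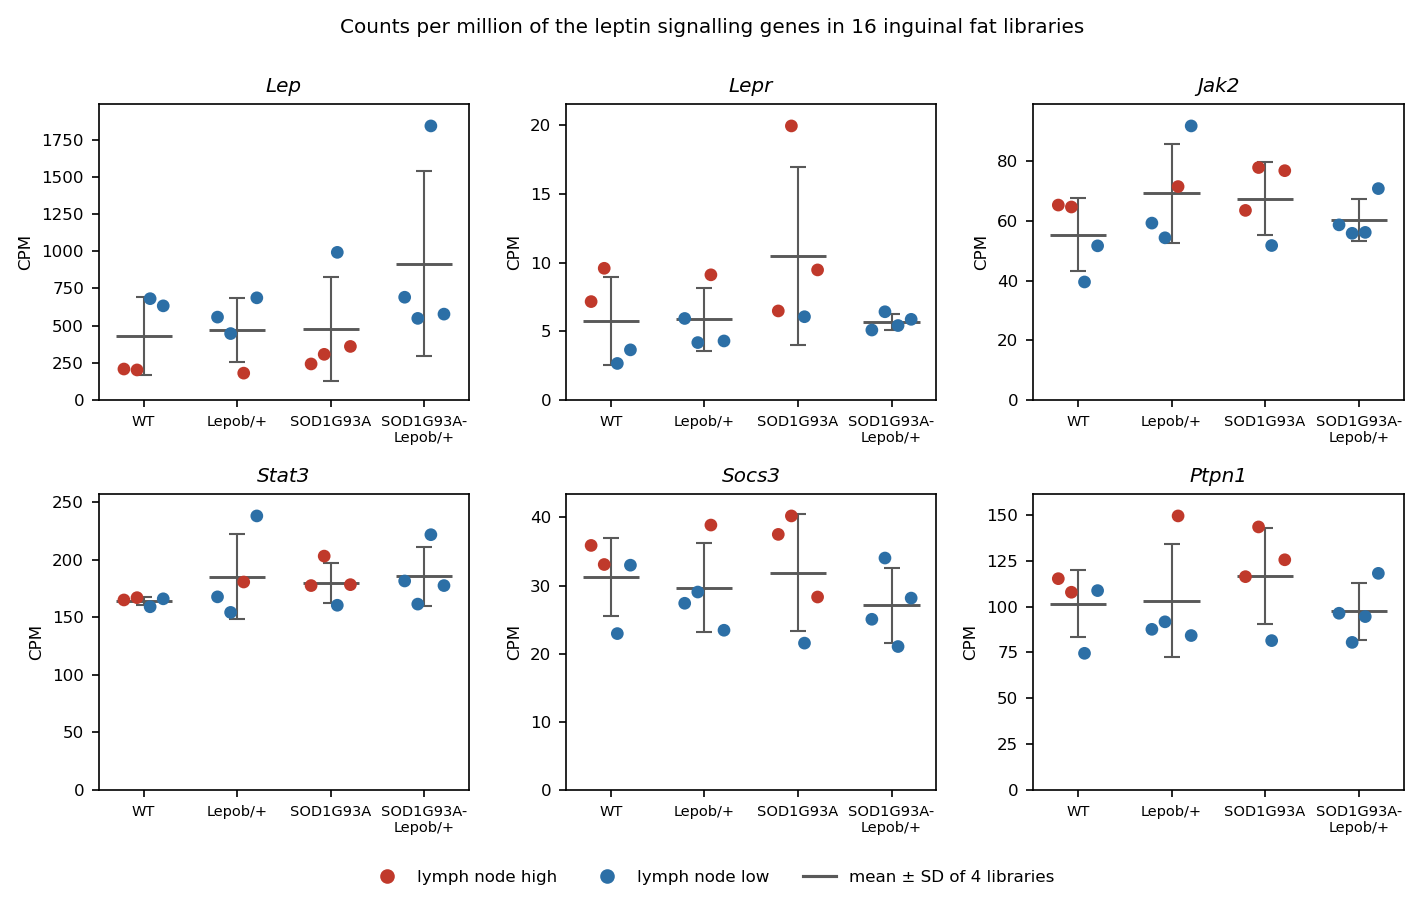
CPM (vertical axis, from 0) of each member in the 16 libraries by genotype (horizontal axis), with points coloured by lymph node class and lines for the mean ± SD of 4 libraries. All 6 lymph node high libraries sit at 360 CPM of Lep or lower, and all 10 low ones at 447 CPM or higher.

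Lep, the gene of the hormone itself, did not pass the test for a difference in carriers of the ob allele. In WT the 4 libraries held 208, 202, 682 and 633 CPM of Lep, and in Lepob/+ they held 558, 447, 181 and 687 CPM. The highest library was 3.37 times the lowest in WT and 3.8 times in Lepob/+, and the ranges overlapped almost wholly. SOD1G93A held 243, 307, 993 and 360 CPM, with replicate 3 far above the rest. SOD1G93A-Lepob/+ held 691, 549, 1843 and 578 CPM, with replicate 3 the highest of the 16. By group mean (SD, n = 4 for all) the order was SOD1G93A-Lepob/+ at 915 ± 622 CPM, SOD1G93A at 476 ± 348, Lepob/+ at 468 ± 215 and WT at 431 ± 262, and no neighbours in that order differed beyond their spread.

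The log2 fold change of Lep in Lepob/+ against WT was 0.12 (SE 0.59, 95% interval -1.14 to 1.38, edgeR adjusted p = 1). In SOD1G93A-Lepob/+ against SOD1G93A it was 0.94 (SE 0.59, interval -0.33 to 2.21, edgeR adjusted p = 0.426). Averaged over both backgrounds the ob allele gave 0.53 (SE 0.42, interval -0.36 to 1.42, edgeR adjusted p = 0.596). All of these intervals include 0, and that of Lepob/+ against WT takes in levels well below and well above WT. For the transgene, the log2 fold change of Lep was 0.14 (SE 0.59) in SOD1G93A against WT, 0.97 (SE 0.59) in SOD1G93A-Lepob/+ against Lepob/+ and 0.55 (SE 0.42) on average, with edgeR adjusted p between 0.676 and 1. The interaction was 0.83 (SE 0.83, edgeR adjusted p = 0.702). Without SOD1G93A-Lepob/+ replicate 3 the values of SOD1G93A-Lepob/+ against Lepob/+, the transgene on average and the interaction were 0.37, 0.26 and 0.23. Without SOD1G93A replicate 3 the last of these were 0.22 and 1.5.

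The Lep value rested on particular libraries. Without SOD1G93A-Lepob/+ replicate 3 the log2 fold change in SOD1G93A-Lepob/+ against SOD1G93A was 0.35 and the average for the ob allele 0.23. Without SOD1G93A replicate 3 they were 1.6 and 0.85, and SOD1G93A against WT turned to -0.53. With the lymph node score as a covariate the average for the ob allele was -0.08 and SOD1G93A-Lepob/+ against SOD1G93A was -0.11, while the average for the transgene was 0.60 (unadjusted p = 0.00987, edgeR adjusted p = 0.968). In that edgeR fit SOD1G93A against WT was at 0.64 (unadjusted p = 0.0471), which did not pass the adjustment. For the transgene on average, 940 of the 19736 genes tested in that fit had an unadjusted p under 0.05. In SOD1G93A against WT 583 did. The fit kept SOD1G93A-Lepob/+ replicate 3 and was not repeated without it. A further test, limma voom with quality weights, which gives deviating libraries less weight, did call Lep higher in SOD1G93A-Lepob/+ than in SOD1G93A (log2 fold change 1.19, adjusted p = 0.0292) and in carriers of the ob allele on average (0.92, adjusted p = 0.0486). That method called 31.5% and 20.5% of all genes in those comparisons, so the call is not particular to Lep, and 3 of the 4 SOD1G93A libraries but none of SOD1G93A-Lepob/+ were lymph node high.

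**Figure D2:**
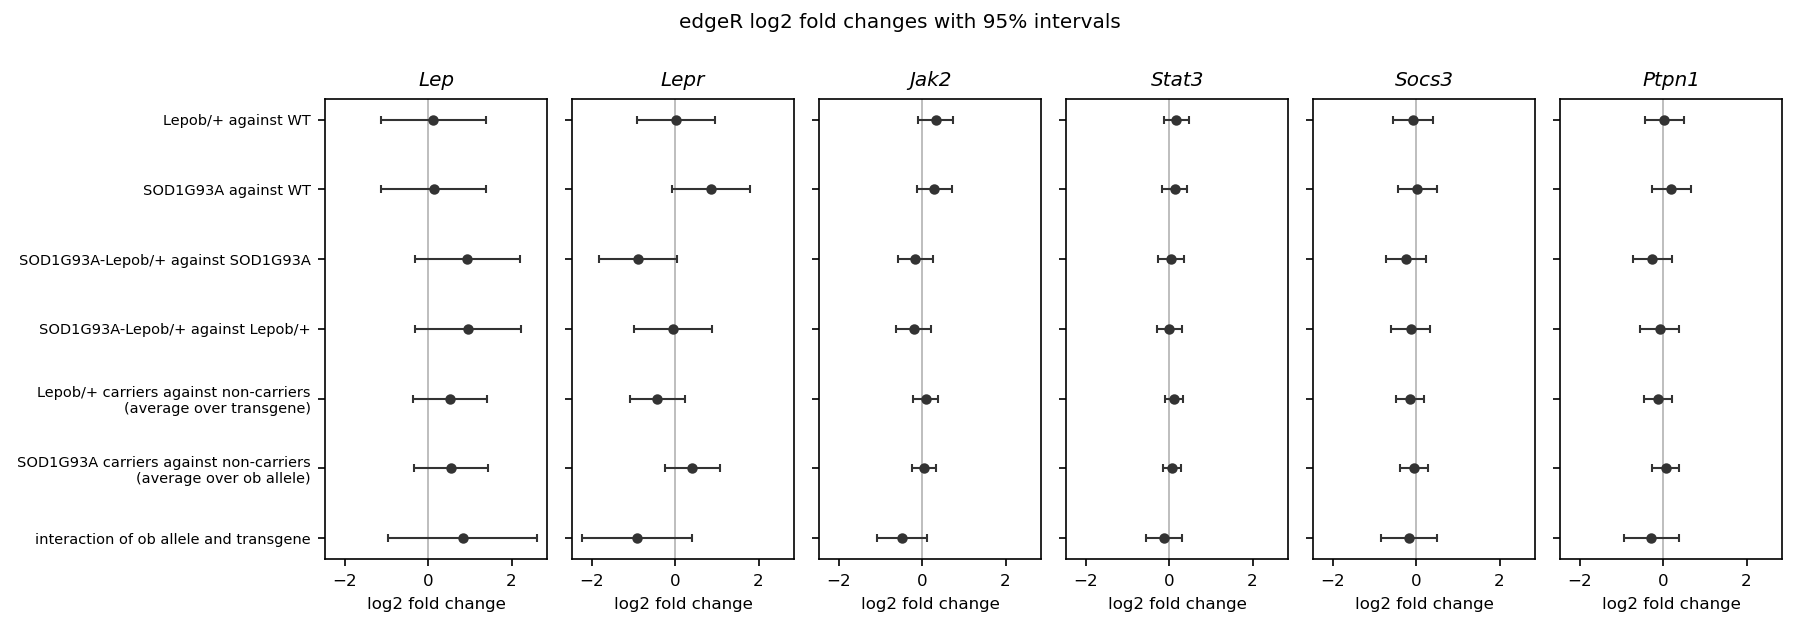
edgeR log2 fold changes (horizontal axis) of each member in the 7 comparisons (vertical axis), with points for the estimate and bars for the 95% interval. Every interval includes 0, and those of Lep and Lepr are the widest.

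Lep was lower in all 6 lymph node high libraries, at 181 to 360 CPM, than in all 10 low ones, at 447 to 1843 CPM. Of all genes tested, 4.23% were lower without overlap in the high libraries and 11.2% were higher, so such a split was not rare. Within WT the high libraries were at 208 and 202 CPM and the low at 682 and 633. Within Lepob/+ the high library was at 181 CPM and the low at 558, 447 and 687. Within SOD1G93A the high libraries were at 243, 307 and 360 CPM and the low at 993. High libraries were thus lower than low ones in each genotype that had both kinds. In bulk tissue, fewer cells of a type and less RNA per cell cannot be told apart, and the part of lymph node tissue in the Lep level was not tested.

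Lep was next set against mature adipocyte content, scored as the mean log2 CPM of 15 adipocyte genes (Adipoq, Plin1, Plin4, Cidec, Lipe, Pnpla2, Fabp4, Cfd, Retn, Adrb3, Aqp7, Lpl, Gpd1, Dgat2 and Acsl1). The score ran from 9.96 to 11.15 over the 16 libraries, and Lep from 7.5 to 10.85 on the same log2 CPM scale. These spans are not like measures, since the score averages 15 genes. As single genes, Adipoq varied 2.7-fold and Plin1 2.46-fold from the lowest to the highest library, and Lep 10.2-fold. In high libraries the score was 9.97 to 10.53 and in low ones 9.96 to 11.15, so it overlapped where Lep did not. Pairs of libraries with close scores differed in Lep level to different degrees. Within the low class, WT replicate 4 and SOD1G93A-Lepob/+ replicate 2 scored 10.5 and 10.48 and had Lep at 9.31 and 9.1 log2 CPM. Lepob/+ replicate 1 and SOD1G93A-Lepob/+ replicate 3, the library with Y-linked counts, both scored 10.73 and had Lep at 9.12 and 10.85. The next pairs each set a high library against a low one. WT replicate 1 and WT replicate 4 scored 10.53 and 10.5 and had Lep at 7.7 and 9.31 log2 CPM. SOD1G93A replicate 4 and Lepob/+ replicate 4 scored 10.16 and 9.96 and had Lep at 8.49 and 9.43, although Lepob/+ replicate 4 is the library with most muscle RNA and alone sets the lower end of the low class, the next being 10.38.

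Relative to the score (Lep log2 CPM minus the score), Lep was -1.9 ± 0.63 in non-carriers and -1.36 ± 0.84 in carriers of the ob allele (SD, n = 8 each). The difference of 0.54, or 1.46-fold, did not pass a 2-sided exact permutation test over libraries (p = 0.172). Without both SOD1G93A-Lepob/+ replicate 3 and Lepob/+ replicate 4 it was 0.16 (exact permutation p = 0.613). Among the lymph node low libraries alone it was 0.18 (3 against 7 libraries, exact permutation p = 0.758). For the transgene the difference was 0.43 (8 against 8, exact permutation p = 0.28), and without SOD1G93A-Lepob/+ replicate 3 it was 0.21 (exact permutation p = 0.536). By genotype (SD, n = 4 for all) the relative level was -1.11 ± 0.83 for SOD1G93A-Lepob/+, -1.61 ± 0.88 for Lepob/+, -1.72 ± 0.54 for SOD1G93A and -2.08 ± 0.75 for WT. The 4 pairwise comparisons of genotypes had exact permutation p-values between 0.371 and 0.486, where 0.0286 is the smallest that 4 against 4 allow.

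Within each genotype that had both kinds, the lymph node high libraries were also lower after this adjustment. In WT the relative Lep level was -2.83 and -2.56 in the high libraries and -1.73 and -1.2 in the low ones. In Lepob/+ it was -2.7 in the high library and -1.61, -1.57 and -0.54 in the low ones. In SOD1G93A it was -2.4, -1.71 and -1.67 in the high libraries and -1.1 in the low one. Across genotypes the classes overlapped, since SOD1G93A-Lepob/+ replicate 4, a low library, was at -1.73. The highest relative level, 0.12, belonged to SOD1G93A-Lepob/+ replicate 3, where Lep exceeded the score itself.

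**Figure D3:**
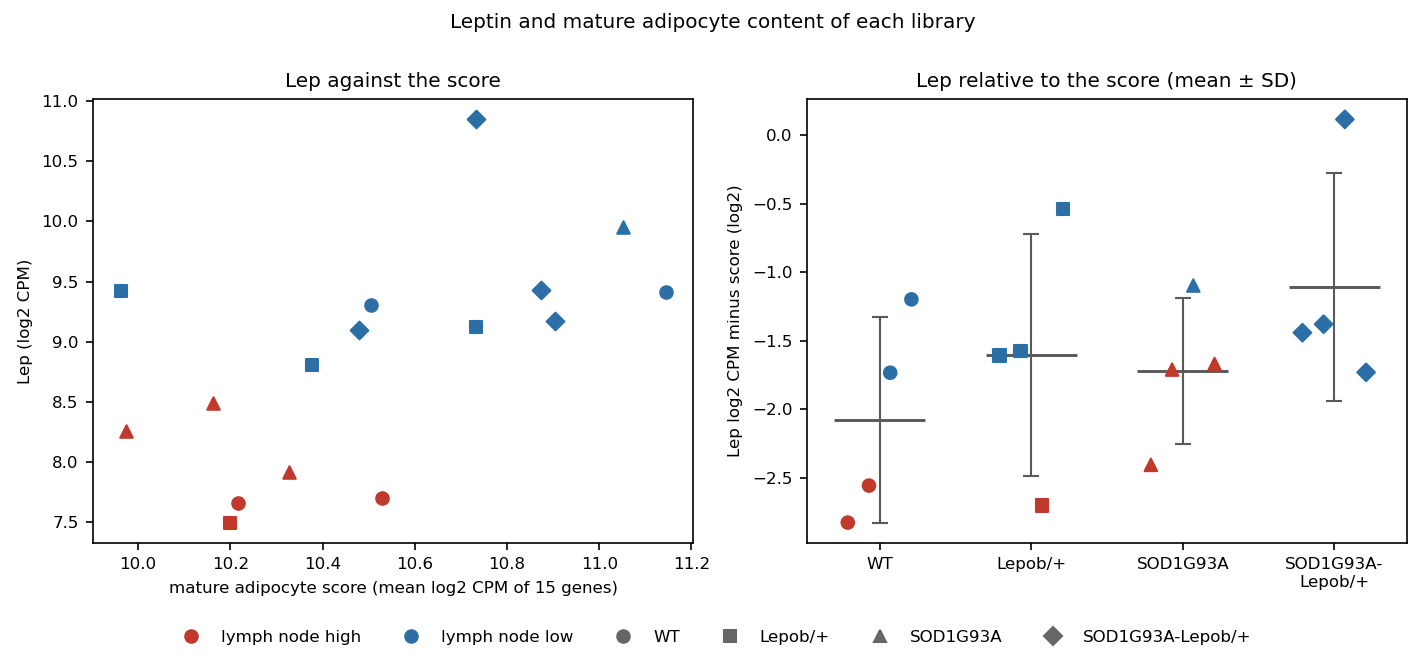
Left, Lep (log2 CPM) against the mature adipocyte score (mean log2 CPM of 15 genes) for each of 16 libraries. Right, Lep minus the score by genotype with mean ± SD of 4 libraries. Lymph node high libraries lie below low ones of similar score, and SOD1G93A-Lepob/+ replicate 3 stands at the top of both panels.

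Because the libraries form separate clusters, correlations with the score were taken within each. Over the 10 low libraries Lep and the adipocyte score had Pearson r = 0.26 (permutation p = 0.455, adjusted over the 6 members 0.682) and Spearman rho = 0.44 (permutation p = 0.203). Without WT replicate 3 and Lepob/+ replicate 4, the libraries farthest from the median score, r was 0.44. Without Lepob/+ replicate 4 and SOD1G93A-Lepob/+ replicate 3, an alternative added after the data were seen, r was 0.72 (permutation p = 0.0316). Centred within genotype r was -0.05. Over the 6 high libraries r was -0.49 (exact permutation p = 0.335) and rho -0.43 (exact permutation p = 0.419). The relation of Lep to the adipocyte score thus did not pass the test in either cluster, and its value moved with the libraries kept. Of the other members, Jak2 had the largest r in the low libraries at -0.66 (permutation p = 0.0443, adjusted 0.266), which rested on Lepob/+ replicate 4 and WT replicate 3, since r was 0.33 without them. In the high libraries all 6 members had negative r with the score, from -0.85 for Lepr (exact permutation p = 0.0472, adjusted 0.133) to -0.08 for Socs3. Without WT replicate 1 and SOD1G93A replicate 2, the farthest from the median score, Socs3 turned to 0.6 and Stat3 went from -0.83 to -0.02.

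Lep was also set against Mest, Sfrp5, Bmp3 and Npr3, genes that go with fat mass in mice. Their mean log2 CPM was 3.96 to 5.22 in the high libraries and 5.39 to 8.04 in the low ones. Sfrp5, an inhibitor of WNT ligands, was at 5.24 to 12.1 CPM in the high libraries and 21.9 to 152 CPM in the low. Npr3, the clearance receptor of natriuretic peptides, was at 94.6 to 260 CPM in the high libraries and 357 to 879 CPM in the low. Of all genes tested, 4.23% were lower without overlap in the high libraries, as both of these were. Bmp3, a bone morphogenetic protein gene, overlapped narrowly, with the high libraries at 19.1 to 39.2 CPM and the low at 38 to 118 CPM. Mest overlapped as well, since SOD1G93A-Lepob/+ replicates 1, 2 and 4, all low, had 11.2, 8.62 and 6.26 CPM against 4.14 to 22 in the high libraries. SOD1G93A-Lepob/+ replicate 3 was the highest library for all of them, with Mest at 301 CPM, Sfrp5 at 152, Npr3 at 879 and Bmp3 at 118.

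Within the high libraries Lep and this score had r = 0.9 (n = 6, exact permutation p = 0.0167, adjusted over the 6 members 0.1) and rho = 0.83 (exact permutation p = 0.0583). Without the 2 libraries farthest from the median score r was 0.73. Within the low libraries r was 0.69 (n = 10, permutation p = 0.0382, adjusted 0.229) and rho 0.42 (permutation p = 0.23), and without the 2 farthest r was 0.15, so that relation rested on those libraries. Of the 60 relations of the 6 members with 5 scores in both clusters, none passed the adjustment over the members.

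**Figure D4:**
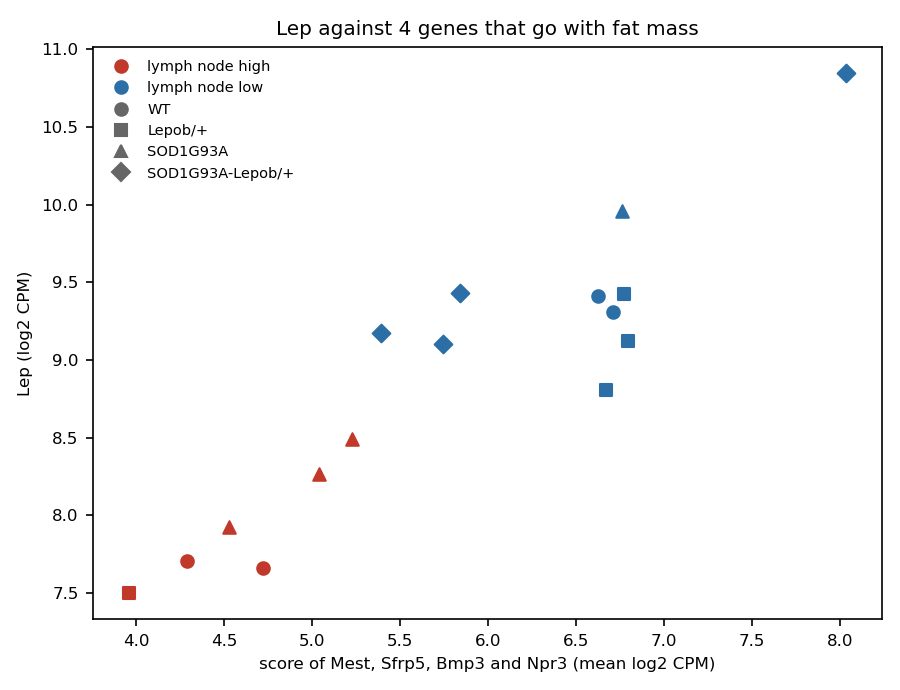
Lep (log2 CPM, vertical axis) against the mean log2 CPM of Mest, Sfrp5, Bmp3 and Npr3 (horizontal axis) in each of 16 libraries, coloured by lymph node class and shaped by genotype. The high libraries lie below 5.22 and the low ones above 5.39 on the horizontal axis, with SOD1G93A-Lepob/+ replicate 3 alone at 8.04.

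Lepr, the receptor gene (chr4:101717404-101815352, plus strand), was scarce. Its raw counts were 103 to 883 per library, so its values carry more counting error than those of the other members. The 4 WT libraries held 7.16, 9.58, 2.66 and 3.65 CPM of Lepr and those of Lepob/+ 5.93, 4.18, 9.11 and 4.3. Those of SOD1G93A held 6.48, 19.9, 6.06 and 9.46 CPM, and those of SOD1G93A-Lepob/+ 5.09, 6.42, 5.42 and 5.87. SOD1G93A had the highest single library. SOD1G93A-Lepob/+ was the most even genotype, and it was also the only one whose libraries were all lymph node low. The log2 fold change was 0.86 (SE 0.44, interval -0.07 to 1.8, unadjusted p = 0.068, edgeR adjusted p = 0.998) in SOD1G93A against WT. In SOD1G93A-Lepob/+ against SOD1G93A it was -0.88 (SE 0.44, interval -1.81 to 0.06, unadjusted p = 0.0635, edgeR adjusted p = 0.325). Without SOD1G93A replicate 2 these were 0.34 and -0.36. With the lymph node score as a covariate in edgeR they were 0.64 (unadjusted p = 0.0449) and -0.04. That fit gave 0.47 for the transgene on average (unadjusted p = 0.035, edgeR adjusted p = 0.968), and none of these values passed the adjustment. Of 19736 genes in that fit, 940 had an unadjusted p under 0.05 for the transgene on average. In SOD1G93A against WT 583 did.

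Lepr ran opposite to Lep between the lymph node classes. It was at 6.48 to 19.9 CPM in all 6 high libraries and at 2.66 to 6.42 CPM in all 10 low ones, against a background of 11.2% of genes that were higher without overlap. The gap was narrow, since SOD1G93A replicate 1 was at 6.48 CPM among the high and SOD1G93A-Lepob/+ replicate 2 at 6.42 among the low. Leprot, a small membrane protein gene next to Lepr that lowers the receptor at the cell surface, was at 60.5 to 119 CPM and overlapped between the classes. Leprot and Lepr share no exon bases in the annotation used. The average log2 fold change of Leprot for the ob allele was 0.16 (SE 0.14, edgeR adjusted p = 0.635).

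Jak2, the gene of the receptor's kinase (chr19:29251828-29313080, plus strand), varied from 39.5 to 91.8 CPM. WT held 65.3, 64.6, 39.5 and 51.6 CPM, Lepob/+ held 59.2, 54.3, 71.5 and 91.8, SOD1G93A held 63.5, 77.8, 51.7 and 76.8, and SOD1G93A-Lepob/+ held 58.6, 55.8, 56.1 and 70.8. The top value was that of Lepob/+ replicate 4, where muscle markers were highest, and the lowest that of WT replicate 3, where they came next. For the ob allele on average the log2 fold change was 0.08 (SE 0.14, edgeR adjusted p = 0.8), and it was -0.01 without that library. The interaction was -0.49 (SE 0.28, unadjusted p = 0.103, edgeR adjusted p = 0.566). With the lymph node score as a covariate Jak2 had 0.41 in Lepob/+ against WT (unadjusted p = 0.0241, edgeR adjusted p = 0.828). In that comparison of the covariate fit, 1118 of 19736 genes had an unadjusted p under 0.05.

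Stat3, the gene of the transcription factor (chr11:100885098-100939540, minus strand), was the steadiest member. Its WT libraries held 165, 167, 159 and 166 CPM, those of Lepob/+ 168, 154, 181 and 238, those of SOD1G93A 178, 203, 160 and 178, and those of SOD1G93A-Lepob/+ 182, 162, 222 and 178. The highest values, 238 and 222 CPM, were in the libraries that stand apart, Lepob/+ replicate 4 and SOD1G93A-Lepob/+ replicate 3. The log2 fold change for the ob allele on average was 0.11 (SE 0.1, interval -0.11 to 0.32, edgeR adjusted p = 0.638), and without those libraries it was -0.02. Stat3 shares 72 exon bases (0.756% of its exons) with Stat5a on the opposite strand.

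The inhibitors Socs3 (chr11:117966079-117970047, minus strand) and Ptpn1 (chr2:167932057-167979385, plus strand) passed no test between genotypes. Socs3 held 35.9, 33.1, 23 and 33 CPM in WT, 27.4, 29.1, 38.9 and 23.4 in Lepob/+, 37.5, 40.2, 21.6 and 28.3 in SOD1G93A, and 25.1, 34, 21.1 and 28.2 in SOD1G93A-Lepob/+. Ptpn1 held 115, 108, 74.5 and 109 CPM in WT, 87.6, 91.7, 149 and 84.2 in Lepob/+, 116, 143, 81.4 and 126 in SOD1G93A, and 96.4, 80.5, 94.5 and 118 in SOD1G93A-Lepob/+. In each of WT, Lepob/+ and SOD1G93A the top library of both genes was lymph node high. For the ob allele on average the log2 fold change was -0.15 (SE 0.16, edgeR adjusted p = 0.668) for Socs3 and -0.12 (SE 0.15, edgeR adjusted p = 0.739) for Ptpn1.

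Between the classes, Socs3 was at 28.3 to 40.2 CPM in the high libraries and 21.1 to 34 CPM in the low, and Ptpn1 at 108 to 149 and 74.5 to 118 CPM, so both overlapped. Jak2 (63.5 to 77.8 against 39.5 to 91.8 CPM) and Stat3 (165 to 203 against 154 to 238 CPM) overlapped as well. Among the other cell type scores, the closest relation was that of Socs3 with 11 macrophage markers in the low libraries (r = 0.71, n = 10, permutation p = 0.0206, rho = 0.76), with an adjusted p of 0.123 over the members. In the high libraries that r was -0.55 (n = 6, exact permutation p = 0.281).

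The wider pathway was read from lists of partners, inhibitors and targets, and in none of them did a gene pass the edgeR adjusted p of 0.05 in any comparison. Of all 19736 genes tested 0% passed, so this is the background and not a result about the lists. The lists were not read in the DESeq2 and limma voom fits. For the ob allele on average, 11 of 20 partners of JAK-STAT and PI3K signalling had a positive and 9 a negative log2 fold change, with a median of 0.06 against 0.03 over all genes. Irs2, an insulin receptor substrate, was at 98.5 ± 27.2 CPM in carriers and 71.8 ± 17 CPM in non-carriers (SD, n = 8 each, log2 fold change 0.46, unadjusted p = 0.03, edgeR adjusted p = 0.512). Of 7 other inhibitors of JAK-STAT, 2 had positive and 5 negative values, with a median of -0.12. Cish, a SOCS family gene, was at 22.2 ± 6.54 CPM in carriers and 13.2 ± 9.5 CPM in non-carriers (log2 fold change 0.76, edgeR adjusted p = 0.53).

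Targets of STAT3 were split, 9 of 19 with positive and 10 with negative values and a median of -0.06. The 3 with the smallest p were Osmr, a receptor of oncostatin M, Cebpd, a C/EBP factor, and Hp, the acute phase protein haptoglobin. Osmr was at 66.6 ± 12.3 CPM in carriers against 55.6 ± 4.76, Cebpd at 38.5 ± 17.6 against 24.5 ± 6.03 and Hp at 806 ± 341 against 431 ± 261 (SD, n = 8 each), all with an edgeR adjusted p of 0.512. Without Lepob/+ replicate 4 the log2 fold change of Cebpd was 0.42 in place of 0.65. Without SOD1G93A-Lepob/+ replicate 3, the library with Y-linked counts, that of Hp was 0.69 (edgeR unadjusted p = 0.0753) in place of 0.9 (0.0278). Of the 11 ligands and receptors of the IL-6 family, 10 were tested and 6 had positive values. Il6st, the shared signalling chain gp130, was at 203 ± 38.5 CPM in carriers and 157 ± 48.6 CPM in non-carriers (log2 fold change 0.42, unadjusted p = 0.00917, edgeR adjusted p = 0.512). By genotype Il6st was at 117 ± 26.1 CPM in WT and 196 to 204 CPM in the other groups. Osm, its ligand from leukocytes, was scarce, at 1.03 ± 1.02 against 2.93 ± 2.51 CPM.

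Of 5 transcription factors that act on Lep (Cebpa, Pparg, Srebf1, Sp1 and Fosl2), 3 had positive and 2 negative values, with Fosl2 at 57.8 ± 12.1 CPM in carriers and 49.3 ± 7.52 CPM in non-carriers (log2 fold change 0.23, edgeR adjusted p = 0.532, or 0.15 without SOD1G93A-Lepob/+ replicate 3). All 4 genes that go with fat mass had positive values, with a median of 0.72, and the largest was Sfrp5 at 1.44 (unadjusted p = 0.0295, edgeR adjusted p = 0.512). These values rested on SOD1G93A-Lepob/+ replicate 3, the library with Y-linked counts. Without it, in a fit added after the data were seen, the median was 0.25, Sfrp5 was at 0.83 (unadjusted p = 0.13, edgeR adjusted p = 0.608), and Mest went from 1.03 to -0.59. Over the same comparison all 10 T cell markers had negative values, with a median of -3.3, and so did all 7 lymph node markers, with a median of -3.37. Of the lymph node high libraries, 1 was a carrier of the ob allele and 5 were not. Their part in these values was not tested.

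The genes whose pattern was most like that of Lep over log2 CPM of the 16 libraries, among 15772 genes with a mean of at least 1 CPM, were Slc6a13 (Pearson r = 0.965), Zfp423 (0.958), Ret (0.957), Cav1 (0.949) and Sec31a (0.945). Slc6a13 encodes a transporter of GABA and taurine, Zfp423 a zinc finger factor of adipocyte identity, Ret a receptor tyrosine kinase, Cav1 the coat protein of caveolae and Sec31a a coat protein of vesicles that leave the endoplasmic reticulum. Over the 10 low libraries alone their r with Lep was 0.867 to 0.916. These 10 were among the 16 libraries over which the genes were picked, so this is not a separate check. For Lepr the nearest were Zxdb (0.96), Herc4 (0.94) and Kat6a (0.93), and for Socs3 Rpl7a-ps5 (0.93), Rps28 (0.93) and Bcl2l11 (0.92). Rpl7a-ps5 is a ribosomal pseudogene whose reads may come from near-identical copies. These correlations share the libraries' composition and are given as descriptions.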

How the data were processed

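Per the labels and the study's methods, RNA of dissected iWAT was sequenced as read pairs. The authors removed low-quality and short reads, aligned the rest to mm10 with HISAT2 (2.1.0 in the submitters' processing notes) and assigned the uniquely mapped ones to genes with featureCounts (2.0.2). The deposited values are raw counts per Ensembl gene ID with no normalization. The strand setting is not given in the sources used here. The members and lists were chosen with earlier results of these data known.

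Symbols were matched for 54723 of 54752 IDs. Counts were analysed with edgeR 4.0.16 in R 4.3.3: filterByExpr (min.count 10, min.total.count 15), TMM, and a robust quasi-likelihood F test over all 16 libraries with the 4 genotypes as groups and Benjamini-Hochberg adjustment over all genes. Log2 CPM used a prior count of 1, and intervals are 95%. At 36795376 to 61886313 counts per library, members other than Lepr had at least 704 counts in each. DESeq2 1.42.0 and limma 3.58.1 were alternatives. Single values were compared by exact permutation over libraries (Python 3.11.15), and correlations by 100000 resamples, or exactly with 6 libraries. Lymph node classes were split at a score of 0, set after the scores were seen. Named genes were the 6 members, Leprot, up to 3 per pathway list with the smallest p for the ob allele on average, and the 5 or 3 genes most like Lep, Lepr and Socs3. Coordinates and exon lengths are from GENCODE M21 (GRCm38). The count models were first run on simulated counts with known changes. Those counts held no lymph node or muscle differences between libraries, so that run does not cover the clusters seen here.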

Additional observations from a re-analysis of the deposited data

Results flagged for a closer look

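In 3 of 28 tests of a genotype's 4 libraries, 1 library lay apart from the others by more of the range than Dixon's 95% limit allows, where chance gives about 1 in 20. SOD1G93A replicate 3 held 993 CPM of Lep, against 243 to 360 CPM in the other SOD1G93A libraries (a gap of 0.843 of the range), and was the only lymph node low library of its genotype. SOD1G93A-Lepob/+ replicate 3 held 1843 CPM of Lep, against 549 to 691 CPM in the rest of its genotype (0.89 of the range), and is the library with Y-linked counts and 0 Xist counts. Lepob/+ replicate 3 held 149 CPM of Ptpn1, against 84.2 to 91.7 CPM in the other Lepob/+ libraries (0.885 of the range), and was the only lymph node high library of its genotype. Their causes were not tested.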

How the results depend on the processing

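Direction and call were kept by 249 of 280 alternative values that left out no single library and 444 of 465 that did. limma voom with quality weights called 1 member (Lep) in each of SOD1G93A-Lepob/+ against SOD1G93A and the average for the ob allele. For the ob allele it gave -0.10 for Jak2. Unadjusted voom p-values were also under 0.05 for Lepr (0.0352) and Ptpn1 (0.0219) in the former and Ptpn1 (0.0351) in the latter. Of 19736 genes, 8722 and 7655 had such a p-value there. With the lymph node score as a covariate, Lep had -0.04 in Lepob/+ against WT, -0.11 in SOD1G93A-Lepob/+ against SOD1G93A, -0.08 for the ob allele on average and -0.08 for the interaction. For the ob allele that fit gave 0.12 for Lepr, 0.07 for Socs3 and 0.10 for Ptpn1. Without both libraries that stand apart, Lep had -0.15 in Lepob/+ against WT and Stat3 -0.02 and Mest -0.79 for the ob allele. Mest had -0.59 there without SOD1G93A-Lepob/+ replicate 3 and 0.82 without Lepob/+ replicate 4. Leaving out each library in turn, Lep ran from -0.15 to 0.43 in Lepob/+ against WT and from -0.53 to 0.45 in SOD1G93A against WT, and Jak2 for the ob allele from -0.01 to 0.13.

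In the low libraries, r with the adipocyte score turned sign under library totals for Lepr (0.36), Stat3 (0.14), Socs3 (0.35) and Ptpn1 (0.53), and without the 2 farthest libraries for Lepr (0.53), Jak2 (0.33), Stat3 (0.29) and Ptpn1 (0.06). It did so for Lepr with Adipoq alone (0.12), for Stat3 without both libraries that stand apart (0.27) and for Lep centred within genotype (-0.05), while Lep without both was 0.72. Leaving out each library gave -0.15 to 0.58 for Lepr, -0.61 to 0.10 for Stat3 and -0.25 to 0.25 for Ptpn1.

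Across all genes, edgeR without Lepob/+ replicate 3 called 254 for the ob allele on average, against 0, and no member. Leaving out another library, edgeR called 3 or fewer. DESeq2 on all 16 libraries called 558 in SOD1G93A-Lepob/+ against SOD1G93A, 73 against Lepob/+, 48 for the ob allele, 39 for the transgene and 51 for the interaction, and voom called 6212 in the first and 4048 for the ob allele. Replicate numbers did not visibly pair the libraries: 5 of 24 same-numbered pairs had a correlation over 0.1 and 8 one below -0.1. Of the 72 pairs with different numbers, 22 were over 0.1 and 25 below -0.1. The medians were -0.033 for the same number and -0.008 for different numbers. With the replicate block the relative Lep difference for the ob allele was 0.54 (exact permutation p = 0.0938), and no member was called. The causes of these changes were not tested. Lepr was the member with the fewest counts, at 103 in its lowest library. Its SE in Lepob/+ against WT, 0.43, was nonetheless below the 0.59 of Lep.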
